A study of Homo sapiens with 8 samples.

Results

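The genes described here are the inhibitors of cyclin-dependent kinases (CDKs) and the D-type cyclins, followed in A549 cells with and without the glucocorticoid dexamethasone. They were taken by name from the pathway: CDKN1A, CDKN1B, CDKN1C, CDKN2A, CDKN2B, CDKN2C, CDKN2D, CCND1, CCND2 and CCND3. Of these 10 genes, 9 were among the 19158 genes of the files; CDKN2B is not analysed here. A549 is an established cell line of human lung adenocarcinoma with epithelial character, labelled wild type. Each library came from 1 well: 4 wells were left untreated, and 4 received dexamethasone at 1 µM over 48 h before RNA was taken; all 8 libraries carry the same batch label and the replicate numbers are 1, 3, 4 and 5 in both groups. The wells are samples of a single line at a single dose and time, so the p-values measure the spread between wells, which may be technical.

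A cell leaves G1 when D-type cyclins bring CDK4 and CDK6 to phosphorylate the retinoblastoma protein, which releases E2F transcription factors, and cyclin E with CDK2 then completes the step into S phase. The INK4 inhibitors (p16, p15, p18 and p19, made from CDKN2A, CDKN2B, CDKN2C and CDKN2D) bind CDK4 and CDK6 and keep them from cyclin D. The Cip/Kip inhibitors (p21, p27 and p57, made from CDKN1A, CDKN1B and CDKN1C) bind cyclin-CDK complexes more widely and are best known for blocking CDK2. Glucocorticoids are known to slow the growth of many cell types, and CDKN1C is known as a gene that they induce.

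Levels are given as FPKM, fragments counted on a gene divided by its transcript length and the library's depth, after scaling between libraries, so that levels of different genes can be set side by side. Differences are dexamethasone minus untreated on the log2(FPKM + 1) scale, which understates the change of genes at low level. A gene was called when limma's p, adjusted by Benjamini-Hochberg over all 12161 genes tested, was under 0.05. Depth was only roughly estimated, at 24630000 to 28890000 fragments per library. At these depths 37.8 to 44.3% of the low values used for the estimate lay within 0.1 of a whole fragment. Spearman correlations between libraries were 0.933 to 0.987 within a group and 0.833 to 0.934 between groups. The glucocorticoid-induced genes FKBP5, TSC22D3 and PER1 were higher in every dexamethasone library than in every untreated library; FKBP5, for example, was 5.67 ± 1.2 FPKM (SD, n = 4) untreated and 134 ± 32.9 FPKM (SD, n = 4) with dexamethasone. Of 6 epithelial markers, 5 had a mean of at least 1 FPKM and EPCAM did not, while the leukocyte markers PTPRC and CD3E were listed at 0 in all 8 libraries. The 4 leukocyte markers summed to 5.32 to 9.17 FPKM untreated and 2.98 to 4.1 FPKM with dexamethasone, all from CD14 and CD68. The 5 fibroblast markers summed to 1.69 to 2.67 and 0.58 to 0.837 FPKM. Untreated this was mostly COL1A1, and with dexamethasone mainly COL1A1 and DCN. COL1A1 fell from 2.05 ± 0.373 to 0.365 ± 0.0702 FPKM (SD, n = 4 each). DCN went from 0 in every untreated well to 0.288 ± 0.0908 FPKM (SD, n = 4). The 4 endothelial markers summed to 0.0641 to 0.176 and 0.0376 to 0.0944 FPKM. The part of these markers in the results was not tested. Untreated replicate 5 departs from its group for several genes below.

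Among the 9 genes, CDKN1C rose from under 0.5 FPKM to the level of CDKN1B, CDKN2C and CCND3 fell, and CDKN1A, CDKN1B, CDKN2D and CCND1 were not called. CDKN2A and CCND2 did not reach the 0.5 FPKM asked of 4 libraries for a test, so 7 genes were tested. Of these 7 genes 1 was called higher and 2 lower, whereas 26.8% of all genes tested were called, 12.6% higher and 14.2% lower. The median difference of the 7 genes was 0.02, beside 0.01 over all genes tested. In 4 of the 7 (CDKN1B, CDKN1C, CDKN2C and CCND3) the groups did not overlap, as was the case for 31.4% of all genes tested; 2 were higher and 2 lower, beside 14.7% and 16.6% of all genes. From 7 genes these counts are not read as particular to the family. In RNA of whole wells, a change within each cell and a change in the share of cells in a state cannot be told apart.

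**Figure D1:**
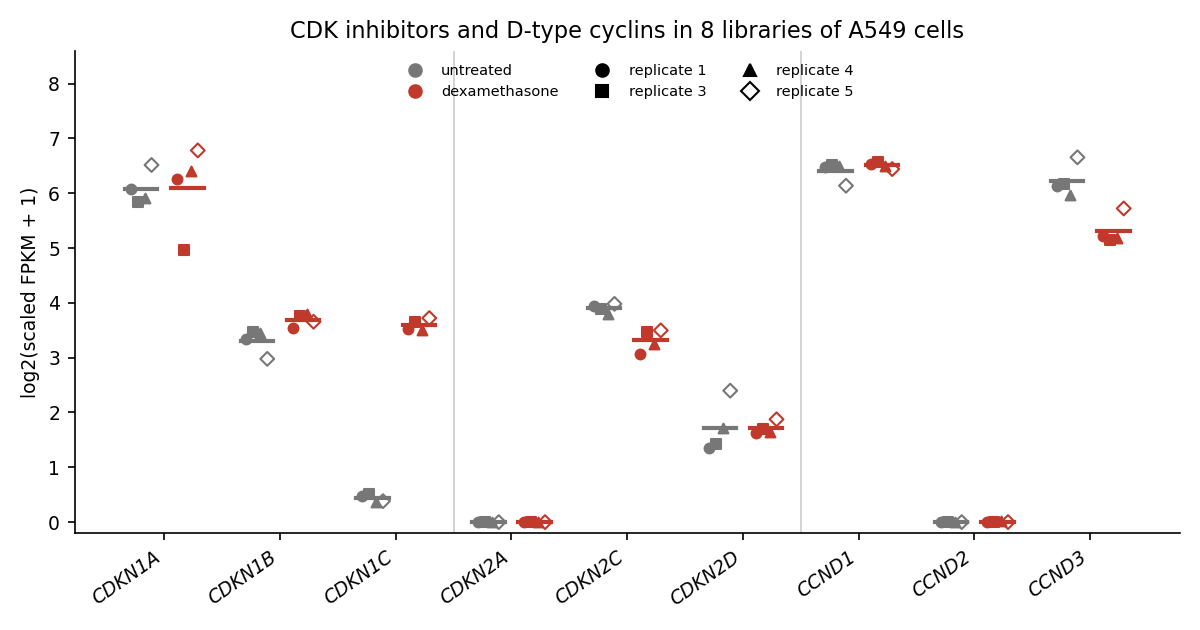
Level of each gene in each library, as log2(scaled FPKM + 1), with untreated libraries in grey, dexamethasone libraries in red, a marker for each replicate number (open diamonds are replicate 5) and a bar at the group mean. CDKN1C moves from at most 0.421 FPKM in the untreated libraries to at least 10.4 FPKM with dexamethasone, and CDKN2C and CCND3 move down without overlap.

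CDKN1C encodes p57, the Cip/Kip protein that is active in development and in differentiated cells, and it lies at chr11:2883213-2885773 on the minus strand (GRCh38). Its level in untreated replicates 1, 3, 4 and 5 was 0.395, 0.421, 0.284 and 0.303 FPKM, and with dexamethasone it was 10.5, 11.6, 10.4 and 12.2 FPKM. All 4 treated wells stood far above all 4 untreated wells, and the treated wells lay close to one another. The means were 0.351 ± 0.0673 FPKM (SD, n = 4) and 11.2 ± 0.898 FPKM (SD, n = 4), a ratio of 31.8. Even the lowest treated well was 24.7 times the highest untreated well, and the highest treated well was 43.1 times the lowest untreated one. The difference on the log2 scale was 3.17 (SE 0.111, 95% interval 2.92 to 3.42, limma adjusted p = 7.76e-08). CDKN1C passed the filter on low values only through its treated wells, so that a difference was set by its entry into the test; with no filter the difference was 3.17 (limma adjusted p = 4.39e-07). With a pseudocount of 0.1 in place of 1, the difference was 4.65.

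CDKN1B encodes p27, which holds cyclin E-CDK2 in check in resting cells, and it lies at chr12:12715058-12722371 on the plus strand. Untreated replicates 1, 3, 4 and 5 were at 9.18, 10.1, 9.95 and 6.88 FPKM, and the dexamethasone replicates at 10.6, 12.6, 12.9 and 11.6 FPKM. The groups did not overlap, but the lowest treated well was only a little above the highest untreated well, and untreated replicate 5 was the lowest of all. The difference of 0.38 (SE 0.143, 95% interval 0.06 to 0.70) did not pass the correction, with a limma p of 0.0256 and an adjusted p of 0.0793. Without untreated replicate 5 alone the difference was 0.25 and not called (limma adjusted p = 0.101), and without both libraries numbered 5 it was 0.28 and called (limma adjusted p = 0.0436). With the replicate number added to the fit, the difference was 0.38 and called (limma adjusted p = 0.026). CDKN1B overlaps GPR19 on the other strand, and whether the counting used strand is not stated. CDKN1A, CDKN2A, CDKN2C, CCND2 and CCND3 also overlap genes on the other strand, lncRNA genes that have no values here.

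CDKN1A encodes p21, the inhibitor through which p53 arrests the cycle, and it lies at chr6:36676460-36687339 on the plus strand. It was the most abundant inhibitor in each of the 8 libraries. Untreated replicates 1, 3, 4 and 5 were at 66.3, 56, 59 and 90.5 FPKM, and the dexamethasone replicates at 75.3, 30.1, 83.4 and 109 FPKM. The groups overlapped, treated replicate 3 was the lowest of the 8 wells, and treated replicate 5 was the highest. The difference was 0.02 (SE 0.353, limma adjusted p = 0.977) with a 95% interval of -0.78 to 0.81, which holds changes of either sign. Without dexamethasone replicate 3 it was 0.40 (limma adjusted p = 0.241), and without dexamethasone replicate 5 it was -0.21 (limma adjusted p = 0.654).

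The make-up of the Cip/Kip transcripts therefore differed between the groups through CDKN1C. CDKN1C made up 0.521%, 0.633%, 0.41% and 0.311% of the summed FPKM of CDKN1A, CDKN1B and CDKN1C in untreated replicates 1, 3, 4 and 5, and 10.9%, 21.3%, 9.72% and 9.21% with dexamethasone. The highest of these shares was in treated replicate 3, the well with the lowest CDKN1A. CDKN1C was at 0.0394 ± 0.00729 (SD, n = 4) of the level of CDKN1B untreated and at 0.941 ± 0.108 (SD, n = 4) of it with dexamethasone. The summed level of the 3 genes was 77.3 ± 14.1 FPKM (SD, n = 4) untreated and 97.6 ± 32.7 FPKM (SD, n = 4) with dexamethasone, and the groups overlapped.

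**Figure D2:**
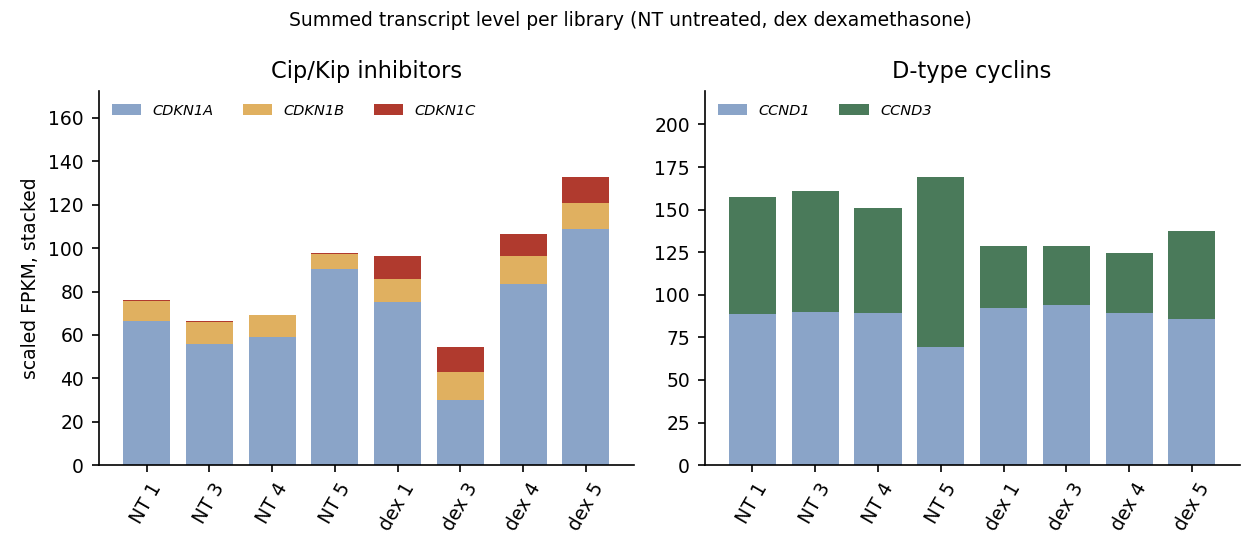
Stacked level in scaled FPKM of the Cip/Kip inhibitors (left) and of CCND1 and CCND3 (right) in each library, untreated (NT) and dexamethasone (dex), numbered by replicate. CDKN1C is visible only in the dexamethasone bars, and the cyclin D bars are 151 to 169 FPKM high untreated and 124 to 138 FPKM high with dexamethasone.

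Of the INK4 inhibitors, CDKN2C was the one that fell. It encodes p18, which binds CDK4 and CDK6, and it lies at chr1:50960745-50974633 on the plus strand. Untreated replicates 1, 3, 4 and 5 were at 14.3, 13.8, 12.9 and 14.8 FPKM, and the dexamethasone replicates at 7.34, 10.1, 8.52 and 10.3 FPKM. The untreated wells were tightly grouped and all lay above the treated wells. The means were 14 ± 0.778 FPKM (SD, n = 4) and 9.07 ± 1.4 FPKM (SD, n = 4), and the difference was -0.58 (SE 0.133, 95% interval -0.88 to -0.28, limma adjusted p = 0.0102).

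CDKN2D encodes p19, the INK4 inhibitor whose level is known to move with the cell cycle, and it lies at chr19:10566462-10569059 on the minus strand. Untreated replicates 1, 3, 4 and 5 were at 1.56, 1.69, 2.29 and 4.27 FPKM, and the dexamethasone replicates at 2.09, 2.24, 2.14 and 2.67 FPKM. The groups overlapped, and the highest of the 8 values was untreated replicate 5. The difference was -0.01 (SE 0.215, 95% interval -0.49 to 0.47, limma adjusted p = 0.974), and it was 0.20 (limma adjusted p = 0.239) without untreated replicate 5.

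CDKN2A, the gene of p16 and of the p53 activator ARF, lies at chr9:21959882-22009363 on the minus strand and was listed at 0 in all 8 libraries. A549 is known as a line that has lost CDKN2A. MTAP, a gene of methionine salvage and the nearest gene of the files at lower coordinates, was read in all 8 libraries, at 3.78 ± 0.534 FPKM (SD, n = 4) untreated and 2.18 ± 0.636 FPKM (SD, n = 4) with dexamethasone. It fell by 0.60 on the log2 scale (SE 0.158, limma adjusted p = 0.0197). The next genes on that side, IFNE and IFNA1, had group means of at most 0.384 FPKM, and IFNA1 was listed at 0 throughout. On the other side DMRTA1 and ELAVL2 had group means of at most 0.365 FPKM, and IZUMO3 was listed at 0 in all 8 libraries. The summed level of the 3 INK4 genes of the files was 16.4 ± 1.77 FPKM (SD, n = 4) untreated and 11.3 ± 1.61 FPKM (SD, n = 4) with dexamethasone, and the groups did not overlap. CDKN2C made up 85.5 ± 5.71% (SD, n = 4) of this sum untreated and 79.8 ± 1.67% (SD, n = 4) with dexamethasone. The fall of the sum therefore mainly repeats that of CDKN2C.

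Among the D-type cyclins, CCND3 fell, CCND1 was not called, and CCND2 was hardly read. CCND3 encodes cyclin D3 and lies at chr6:41934933-42050357 on the minus strand. Untreated replicates 1, 3, 4 and 5 were at 68.9, 70.6, 61.4 and 99.8 FPKM, and the dexamethasone replicates at 36.4, 34.4, 35.3 and 51.8 FPKM. Every treated well was below every untreated well, and replicate 5 was the highest of its group on either side. The means were 75.2 ± 16.9 FPKM (SD, n = 4) and 39.5 ± 8.27 FPKM (SD, n = 4), so that the untreated mean was 1.9 times the treated one. The difference was -0.91 (SE 0.192, 95% interval -1.34 to -0.48, limma adjusted p = 0.00698), and -0.89 (limma adjusted p = 0.000112) without both libraries numbered 5.

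CCND1 encodes cyclin D1, the main D-type cyclin of many epithelial cells, and lies at chr11:69641087-69654474 on the plus strand. Untreated replicates 1, 3, 4 and 5 were at 88.5, 90.1, 89.6 and 69.4 FPKM, and the dexamethasone replicates at 92.2, 94.2, 89.1 and 85.9 FPKM. The groups overlapped, and 7 of the 8 wells lay between 85.9 and 94.2 FPKM with untreated replicate 5 below them. The difference was 0.10 (SE 0.134, 95% interval -0.20 to 0.40, limma adjusted p = 0.586), and -0.0019 (limma adjusted p = 0.991) without untreated replicate 5. CCND1 overlaps LTO1 on the other strand.

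CCND2, the gene of cyclin D2, lies at chr12:4273772-4305350 on the plus strand. Untreated replicate 3 held 0.00567 FPKM and dexamethasone replicate 4 held 0.0114 FPKM, and the other 6 libraries listed the gene at 0. The summed D-type cyclin level was 157, 161, 151 and 169 FPKM in untreated replicates 1, 3, 4 and 5, and 129, 129, 124 and 138 FPKM with dexamethasone. All treated sums were below all untreated sums, with means of 160 ± 7.59 FPKM (SD, n = 4) and 130 ± 5.61 FPKM (SD, n = 4). CCND1 made up 53.2 ± 8.25% (SD, n = 4) of that sum untreated and 69.7 ± 4.97% (SD, n = 4) with dexamethasone. The level of CCND3 relative to CCND1 was 0.778, 0.784, 0.685 and 1.44 in the untreated replicates and 0.394, 0.365, 0.397 and 0.603 with dexamethasone. In untreated replicate 5 alone CCND3 was above CCND1.

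**Figure D3:**
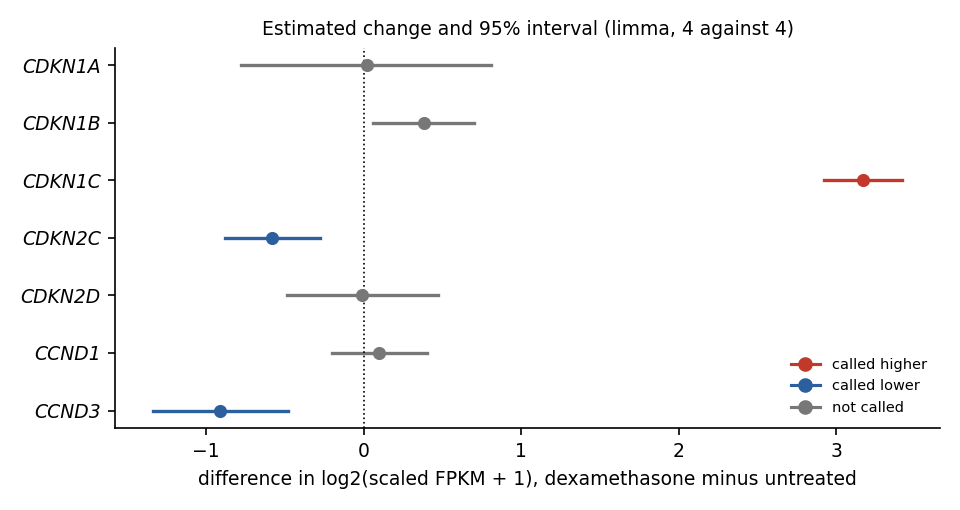
Difference in log2(scaled FPKM + 1), dexamethasone minus untreated, for the 7 genes tested, with the 95% interval from limma over 4 against 4 libraries; red was called higher, blue lower, grey not called. The interval of CDKN1C, 2.92 to 3.42, lies apart from all others, and those of CDKN1A and CDKN2D span 0 widely.

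The order of the levels changed with these 3 genes. In untreated cells CCND1, CCND3 and CDKN1A led with overlapping ranges, and below them CDKN2C, CDKN1B, CDKN2D and CDKN1C followed in this order, each range clear of the next. With dexamethasone CCND1 and CDKN1A overlapped at the top, CCND3 overlapped with CDKN1A and lay below CCND1, and CDKN1B (10.6 to 12.9 FPKM) and CDKN1C (10.4 to 12.2 FPKM) could not be told apart by their ranges. CDKN2C came next at 7.34 to 10.3 FPKM and CDKN2D last among the genes tested. The summed Cip/Kip level was 0.483 ± 0.0689 (SD, n = 4) of the summed cyclin D level untreated and 0.749 ± 0.235 (SD, n = 4) with dexamethasone. In treated replicate 3, where CDKN1A was low, this ratio was 0.422 and lay inside the untreated range, so the groups overlapped.

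A promoter window is shown for each of the 2 genes that fell, with GC boxes marked. The GC box is the letters GGGCGG, which Sp1-type factors are known to bind. Both genes have further starts, and which start these cells use was not tested. RefSeq promoter entries (GRCh38.p14) were found for 7 of the 10 genes, with 12 start sites in all; CDKN1C, CCND1 and CCND2 had none, so no promoter of the gene that rose was searched. All 7 genes with an entry held a GC box, called or not. Each window below is the 250 bases before a start, read 5′ to 3′ on the gene's strand, with capitals on GC boxes of either strand. For CCND3 the window is chr6:41941809-41942058 on the minus strand and for CDKN2C chr1:50969995-50970244 on the plus strand; of the windows without a base in annotated exons, the one with the most CpG was taken.
CCND3: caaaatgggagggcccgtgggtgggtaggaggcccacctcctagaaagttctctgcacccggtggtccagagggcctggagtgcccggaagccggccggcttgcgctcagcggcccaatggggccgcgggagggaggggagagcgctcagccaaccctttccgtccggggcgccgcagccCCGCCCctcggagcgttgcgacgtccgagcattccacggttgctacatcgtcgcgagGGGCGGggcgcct
CDKN2C: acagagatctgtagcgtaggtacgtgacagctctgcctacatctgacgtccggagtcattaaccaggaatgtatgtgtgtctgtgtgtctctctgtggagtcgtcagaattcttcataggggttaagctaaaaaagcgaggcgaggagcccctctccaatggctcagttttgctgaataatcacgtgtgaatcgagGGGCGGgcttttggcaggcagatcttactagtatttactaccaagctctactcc
CCND3 has 2 GC boxes in this window, 70 and 13 bases before the start, and 26 CpG; CDKN2C has 1 GC box 54 bases before the start, 10 CpG and an E-box (CACGTG) at 69 bases. Over all starts a GC box was found before 9 of 12 starts of these genes and before 42.5% of 34943 starts of all genes, on both strands. The full glucocorticoid response element (AGAACA, any 3 bases, then TGTTCT) and its first arm AGAACA alone were found before 0 of the 12 starts, beside 0.00286% and 12.4% of all starts. CHR (TTTGAA) and the E2F letters TTTCCCGC, TTTGGCGC, TTTGCCGC or TTTCGCGC were found before 0 of the 12 starts, beside 13.4% and 2.77% of all starts. The CCAAT box, searched as CCAAT, was found before 5 of the 12 starts and 32% of all starts, and the E-box before 2 of the 12 starts and 6.32% of all starts. A match shows these letters only, and no binding was measured.

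CDKN1C lies in an imprinted domain, in which genes are known to be expressed from a single parental copy, so its neighbours were read beside it. PHLDA2, a growth-restraining gene of the same domain, fell: it was at 52.6 ± 13.1 FPKM (SD, n = 4) untreated and 27.6 ± 5.49 FPKM (SD, n = 4) with dexamethasone, a difference of -0.90 (SE 0.193, limma adjusted p = 0.00755). SLC22A18 (difference 0.22, limma adjusted p = 0.421), its antisense gene SLC22A18AS (-0.43, adjusted p = 0.498) and TSSC4 (0.33, adjusted p = 0.363) were not called. KCNQ1, a potassium channel gene, was below the filter: untreated replicates 1, 3, 4 and 5 held 0.303, 0.173, 0.135 and 0.173 FPKM, and the treated ones 0.68, 0.318, 0.605 and 1.27 FPKM. The KCNQ1 groups did not overlap, by a narrow margin. TRPM5 was at 0 in 6 of the 8 libraries, and its highest value was 0.00932 FPKM.

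Over the 8 libraries the 5 tested genes whose log2 levels followed CDKN1C most closely were ALPP (placental alkaline phosphatase, Pearson r 0.9998), SDK2 (0.9995), SLC7A8 (an amino acid transporter, 0.9992) and SCNN1B and SCNN1G (subunits of the epithelial sodium channel, 0.9991 and 0.9990). With 2 groups far apart, such a correlation mainly reads the difference between them, and 94 tested genes had an r over 0.99. ALPP, SLC7A8, SCNN1B and SCNN1G had untreated means of 0.0855, 0.0538, 0.162 and 0.00352 FPKM. Like CDKN1C, they passed the filter only through their treated wells, so a likeness to CDKN1C was partly set by their entry. ALPP went from 0.0855 ± 0.0264 FPKM (SD, n = 4) to 10.1 ± 0.702 FPKM (SD, n = 4) and so ended close to CDKN1C, while SCNN1B reached 31.4 ± 5.74 FPKM (SD, n = 4).

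The partners of these genes were read from a list of 55 genes of the G1/S pathway, of which 54 were tested (CCNA1 was below the filter). In this list 5 genes were called higher and 26 lower (12.6% and 14.2% of all genes tested were), and the median difference was -0.47, beside 0.01 over all genes tested. The list was chosen with earlier results of these data known, so this contrast is descriptive only. The counts by role below come from few genes each and stand beside the same shares. The 3 called higher in each of the 19 other settings of the processing were FOXO1, FOXO3 and TFDP2, and 20 of the 26 called lower were so in each of them.

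Of the 4 kinases that cyclins and the inhibitors bind, 2 fell. CDK4, the main partner of cyclin D, fell from 88.6 ± 27.9 FPKM (SD, n = 4) to 52.8 ± 11.2 FPKM (SD, n = 4), a difference of -0.71 (limma adjusted p = 0.0415), with overlapping groups and a call in 14 of the 19 other settings. CDK2, the target of the Cip/Kip proteins, fell by 0.59 on the log2 scale (limma adjusted p = 0.0432). Its groups overlapped too, and this call held in 8 of the 19 other settings. CDK6 had a difference of -0.41 (adjusted p = 0.38), and -0.78 (adjusted p = 0.00805) without untreated replicate 5. It was called lower in 5 of the 19 other settings. The CDK-activating kinase genes CDK7 (0.46, adjusted p = 0.107) and MNAT1 (0.27, adjusted p = 0.373) were not called; CDK7 was called higher in 4 of the 19 other settings, with 0.59 (adjusted p = 0.0448) without dexamethasone replicate 5.

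Most listed cyclins and factors that act after cyclin D fell. Of 5 tested genes of cyclins E, A and B, 4 fell, among them CCNE1 (cyclin E1, -0.88, adjusted p = 0.000556) and CCNB1 (mitotic cyclin B1, -1.39, adjusted p = 8.99e-05), while CCNE2 was at -0.25 (adjusted p = 0.273). CCNE2 was called lower in 5 of the 19 other settings, with -0.41 (adjusted p = 0.0257) without untreated replicate 5 and -0.64 (adjusted p = 0.00173) with the GC trend removed. All 5 CDC25 phosphatases and inhibitory kinases of the list fell, with CDC25A, which activates CDK2, at -1.59 (adjusted p = 1.53e-05) and CDC25C at -1.08 (adjusted p = 0.000364). Of 10 E2F and DP factors, 5 fell and 1 rose, led by E2F1 (-1.66, adjusted p = 0.00016) and E2F2 (-1.48, adjusted p = 9.16e-05), both activators of S-phase genes. Of the 5 proliferation markers PCNA (-1.05, adjusted p = 0.000985), MCM2 (-1.59, adjusted p = 0.000996) and BUB1 fell. MKI67, the gene of the Ki-67 antigen, was at -0.66 with an adjusted p of 0.0519, and at -0.92 (adjusted p = 0.000309) without untreated replicate 5. It was called lower in 7 of the 19 other settings.

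Among the pocket proteins, the targets of cyclin D kinases, RBL2 (p130) rose by 0.48 on the log2 scale (limma adjusted p = 0.0473) and RBL1 (p107) fell by 0.49 (adjusted p = 0.0484), while RB1 was at 0.51 (adjusted p = 0.118). RB1 was called higher in 3 of the 19 other settings, with 0.45 (adjusted p = 0.0224) without both libraries numbered 5. The calls of RBL2 and RBL1 held in 10 and 8 of the 19, and without untreated replicate 5 RBL2 was at 0.34 (adjusted p = 0.051). The groups overlapped for RBL1. Of 11 ubiquitin ligase parts 5 fell, 1 rose and 5 were not called, beside 14.2% lower and 12.6% higher over all genes tested. SKP2, which marks p27 for destruction, was at -0.45 (adjusted p = 0.0393, called in 12 of the 19 other settings), its cofactor gene CKS1B at -1.51 (adjusted p = 0.00022), and CDC20, an activator of the anaphase-promoting complex, at -1.54 (adjusted p = 0.00127). FOXO1 and FOXO3, transcription factors known to activate CDKN1B and to lower D-type cyclins, rose by 1.82 (adjusted p = 1.68e-05) and 1.63 (adjusted p = 1.74e-05), and FOXO1 went from 1.48 ± 0.251 FPKM (SD, n = 4) to 7.76 ± 1.28 FPKM (SD, n = 4). Whether any of these moved the inhibitors or cyclins was not tested.

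**Figure D4:**
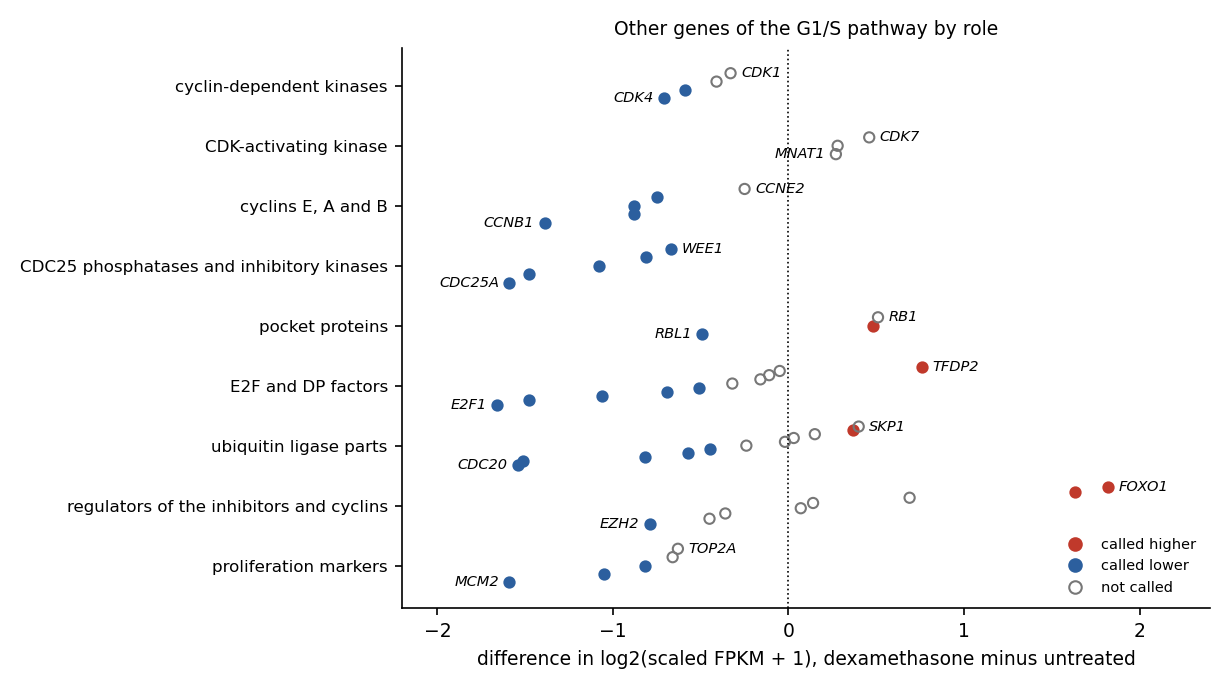
Difference in log2(scaled FPKM + 1), dexamethasone minus untreated, for each of 54 tested genes of the G1/S pathway, 1 point per gene, grouped by role on the vertical axis; red was called higher, blue lower, open circles not called, and the lowest and highest gene of a role are named. Most called genes lie left of 0, with E2F1 at -1.66, and FOXO1 at 1.82 lies farthest right.

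CDKN1C, CDKN2C and CCND3 were each called in the same direction in all 19 other settings tried. Their differences were 3.13 to 4.65 for CDKN1C, -0.64 to -0.39 for CDKN2C and -1.04 to -0.68 for CCND3. In every setting with a filter on low values, CDKN1C passed it only through its treated wells. Those settings therefore repeat a difference set by its entry into the test. CDKN1B was positive in all 19 and called in 3, and CCND1 was called in 1. CDKN1A and CDKN2D were called in none of the 19, with limma adjusted p of 0.241 to 0.991 and 0.181 to 0.998.

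**Figure D5:**
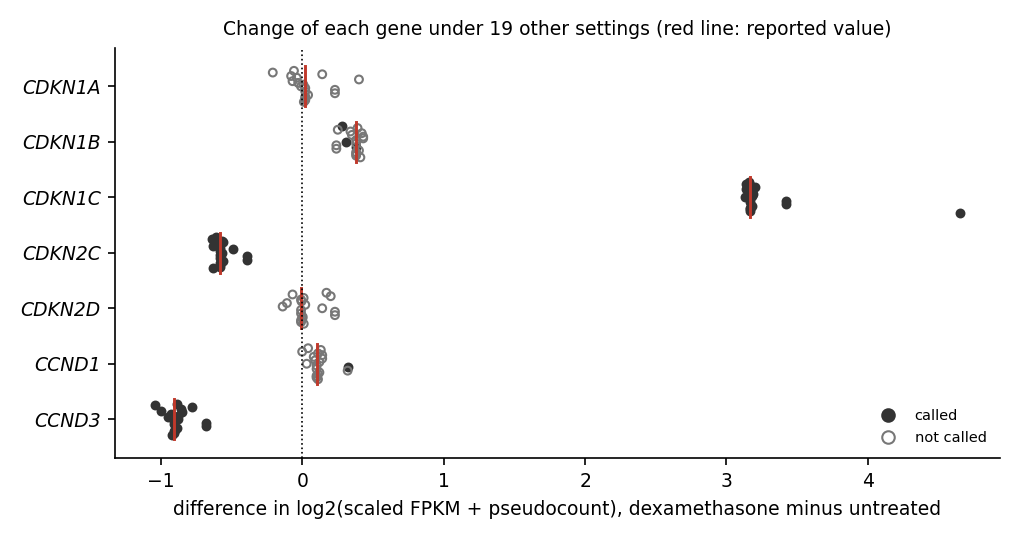
Difference on the log2 scale, dexamethasone minus untreated, for each tested gene under the 19 other settings (points, filled where called, open where not) and as reported (red line). The points of CDKN1A and CDKN2D lie on both sides of 0, and those of CDKN1C, CDKN2C and CCND3 stay filled and on 1 side.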

How the data were processed

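Per the series' design text, the authors trimmed reads with Cutadapt 3.4, aligned them to GRCh38 with STAR 2.7.9a, counted genes with featureCounts (Subread 2.0.3) and tested with DESeq2 1.32.0; the annotation release and use of strand are not given in the sources used here. The deposited values are not whole numbers and were read as FPKM from their sums, although the labels call them counts; whole reads were not recovered, so no count test was run, and the depth is an estimate from the steps of low values. From these deposited FPKM values, a factor per library came from trimmed M values (trim 0.3 of M and 0.05 of A, factors 0.821 to 1.09), and log2(FPKM + 1) was fitted with limma 3.58.1 in R 4.3.3 (eBayes with trend and robust, group only, two-sided). The fit was tested on simulated data. Genes with FPKM of at least 0.5 in 4 libraries were tested.

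Named were all members, FKBP5, TSC22D3 and PER1, the 2 genes of smallest p in each pathway role and 9 always named, the 5 genes most like CDKN1C, and the 3 nearest genes of the files beside CDKN1C and CDKN2A; markers, TFDP2, BUB1, CCNA1 and overlapping genes are named where a count needs them, after their values were seen. The members and gene lists were chosen with earlier results of these data known. Coordinates are those of the files. An exact two-sided permutation test between groups was run on summed FPKM, estimated fragments, genes read and the mitochondrial share. None passed (adjusted p 0.229 to 0.943, smallest possible p before adjustment 0.0286). With p adjusted over 4 measures, even a measure without overlap between groups could fail, so no conclusion is drawn from this test. It also left the replicate numbers out. The mitochondrial share was 3.73 ± 1.77% (SD, n = 4) untreated and 6.05 ± 2.82% (SD, n = 4) with dexamethasone. Alternatives changed the pseudocount, filter, scaling, GC trend, weights, block and libraries.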

Additional observations from a re-analysis of the deposited data

Results flagged for a closer look

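In 8 of 59 groups of 4 values looked at, 1 library lay apart from the other 3 by Dixon's criterion; chance alone gives about 3. Untreated replicate 5 was that library in 7 of the 8. For CCND1 it was at 69.4 FPKM, with the other untreated wells at 88.5 to 90.1 FPKM, and for MNAT1 at 3.02 FPKM against 5.82 to 5.98 FPKM. It was above the others for CCNB1 (118 FPKM against 95.8 to 96.5), E2F1 (38 FPKM against 22.8 to 23.7), CKS1B (207 FPKM against 132 to 143), CDC20 (139 FPKM against 77.8 to 81.3) and MCM2 (75.5 FPKM against 44.5 to 45.8). Dexamethasone replicate 5 was apart for CCND3, at 51.8 FPKM against 34.4 to 36.4 FPKM in the other treated wells. The origin of these values was not tested.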

How the results depend on the processing

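The number of genes called, 3258 (1531 higher, 1727 lower), was 5756 (2871 and 2885) with array weights and 5534 (2769 and 2765) without both libraries numbered 5. Members called higher then became 2, by CDKN1B (0.31, adjusted p = 0.0153, with array weights), and pathway genes called higher became 9 in both. Pathway genes called higher were 3 without scaling and 3 with the GC trend removed. Leaving out each library in turn, genes called were 2285 to 3876, members called higher 1 and pathway genes called higher 3 to 6. The cause was not tested. Differences of uncalled genes changed sign: CDKN2D to 0.0092 (pseudocount 0.1), 0.0021 (median-of-ratios scaling), 0.23 (GC trend removed, also with the replicate block), 0.14 (array weights) and 0.17 (both libraries numbered 5 left out), and between -0.14 and 0.20 on leaving out single libraries (0.02 and 0.0083 without dexamethasone replicate 1 and 4); CDKN1A to -0.01 (array weights), -0.06 (both libraries numbered 5 left out) and, leaving out single libraries, -0.03, -0.07, -0.04, -0.08 and -0.21, with 0.40 the highest; CCND1 to -0.0019 without untreated replicate 5.

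The replicate numbers are shared by the groups, and same-numbered wells had correlations of their deviations of 0.294, 0.067, 0.315 and 0.713 for numbers 1, 3, 4 and 5. Not every well correlated best with its own number: untreated replicate 3 did so with dexamethasone replicate 1 (0.435). Deviations within groups of 4 are pulled by the wells numbered 5, so these values cannot decide whether wells were paired. MYC, described below, was highest in both wells numbered 1. The mitochondrial share was also highest in the wells numbered 1 of both groups (6.04% untreated, 9.44% with dexamethasone). It was lowest in the wells numbered 5 of both groups (1.74% untreated, 2.55% with dexamethasone). The reported fit left pairing out. With the replicate block 5738 genes were called (2908 higher, 2830 lower), with CDKN1B (0.38, adjusted p = 0.026) making 2 members higher, and 9 pathway genes higher. With the replicate block and the GC trend removed, 5299 genes were called (2647 and 2652), and CCND1 (0.32, adjusted p = 0.0467) made 2 members higher; MYC was then at 0.29 (adjusted p = 0.0498). With the replicate block alone CDK7 (adjusted p = 0.015) and RB1 (adjusted p = 0.0114) were called higher. At each of the 4 numbers the mitochondrial share was higher and the summed FPKM lower in the treated well; their part in the results was not tested. The fit was also run on simulated data, with noise drawn from the spread of the 4 untreated wells, replicate 5 among them. With 200 genes changed, 0% were recovered at 1.5-fold (12080 genes), 39.5% at 2-fold (12061 genes) and 77% at 4-fold (12056 genes). The data differ, as 3258 genes were called, among them CDKN2C, whose untreated mean was 1.54 times the treated one. The simulated shares therefore do not give the recovery in these data. Small changes in CDKN1A, CDKN1B, CDKN2D or CCND1 may still have been missed with 4 wells a group.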

Other observations

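MYC, known as a repressor of CDKN1A and CDKN1B and a gene named here after its values were seen, was highest in the wells numbered 1 of both groups. It was at 23.6 FPKM in untreated replicate 1 and 22.6 FPKM in dexamethasone replicate 1, the other 3 untreated wells were at 3.05, 2.66 and 4.82 FPKM, and the other 3 treated wells at 4.05, 3.94 and 4.31 FPKM. Its difference between the groups was 0.14 (SE 0.677, limma adjusted p = 0.895). In both wells numbered 1 CDKN1A, CDKN1B and CDKN1C lay within the range of the other 3 wells of their group, except CDKN1B in the treated well, at 10.6 FPKM against 11.6 to 12.9 FPKM.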
